A study of Mus musculus with 6 samples.

Results

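The nuclei described here were selected from the aged mouse hippocampus as CA1 pyramidal neurons of the main type, by a rule on detected transcripts. A nucleus was included when it held at least 500 unique molecular identifiers (UMIs, counts of single captured transcripts), at most 5% of them mitochondrial, and at least 1 UMI in 3 or more of the 6 CA1 markers Mpped1, Fibcd1, Man1a, Wfs1, Pou3f1 and Stac. It also had to show fewer than 2 of Pde11a, Cpne7, Npr3 and Adamtsl1, at most 1 UMI of the inhibitory markers Gad1 and Gad2, fewer than 3 of 5 subicular markers and fewer than 4 of 6 dentate granule markers. The rule found 1703 nuclei among the 53294 that passed the limits on UMIs and mitochondrial share. The 3 oxygen libraries gave 236, 274 and 246 of them and the 3 sevoflurane libraries 370, 278 and 299 (replicates 1 to 3). The selecting genes are high in these nuclei by construction, and their values are given as a description only.

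Both groups were aged mice of 18 to 20 months, and nuclei were isolated from frozen hippocampus. The sevoflurane group breathed 2% sevoflurane, a volatile anaesthetic, in 60% oxygen at 1 L/min for 6 h, and the control group breathed 60% oxygen by itself at the same flow for as long. By the labels, replicate 3 came from females and replicates 1 and 2 from males in either group. The sources used here do not state the strain, how many animals a library holds or the time from exposure to tissue collection, and the p-values therefore refer to the variation among libraries, which may be technical. The series is titled for delayed neurocognitive recovery and a low blood level of S-methyl-5-thioadenosine.

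CA1 pyramidal neurons are excitatory cells that receive glutamatergic input from CA3 and send the main output of the hippocampus to the subiculum and cortex. Their synaptic plasticity is a standard model of spatial and episodic memory. Volatile anaesthetics are known to potentiate GABA-A receptors, to dampen glutamatergic transmission and to open two-pore-domain potassium channels. Strong excitation switches on immediate-early genes such as Fos and Arc within minutes.

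The labelled sex did not match the transcripts in 3 of the 6 libraries. In the selected nuclei of sevoflurane replicate 1, labelled male, Xist stood at 1055 CPM (UMI counts scaled to library size) and 4 Y-linked genes together at 0 CPM. In the other 5 libraries, including both labelled female, Xist stood at 0.849 to 3.05 CPM and the Y-linked genes at 313 to 379 CPM. Summed over the selected nuclei, a library held 2291961 to 3475652 UMIs, and the median nucleus held 7679.5 to 10184 UMIs. The deposited libraries held 56334621 to 72636984 UMIs. Of the 1703 barcodes, 0 occurred in the selected nuclei of another library.

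The selected nuclei were not of one kind. In 988 of them (58.0%) Galntl6, which encodes a glycosyltransferase-like protein, had more UMIs than Dpp10, which encodes an auxiliary subunit of Kv4 potassium channels. In 637 (37.4%) the order was the opposite, and 78 nuclei had equal counts. The median nucleus of the first side held 48 Galntl6 and 0 Dpp10 UMIs, and that of the second held 1 Galntl6 and 48 Dpp10 UMIs. In 279 nuclei (16.4%) the higher count was less than 2 times the lower plus 3, which is near the dividing line. These are called the Galntl6 side and the Dpp10 side below. They were defined after the data had been seen and are given no cell type name.

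**Figure D1:**
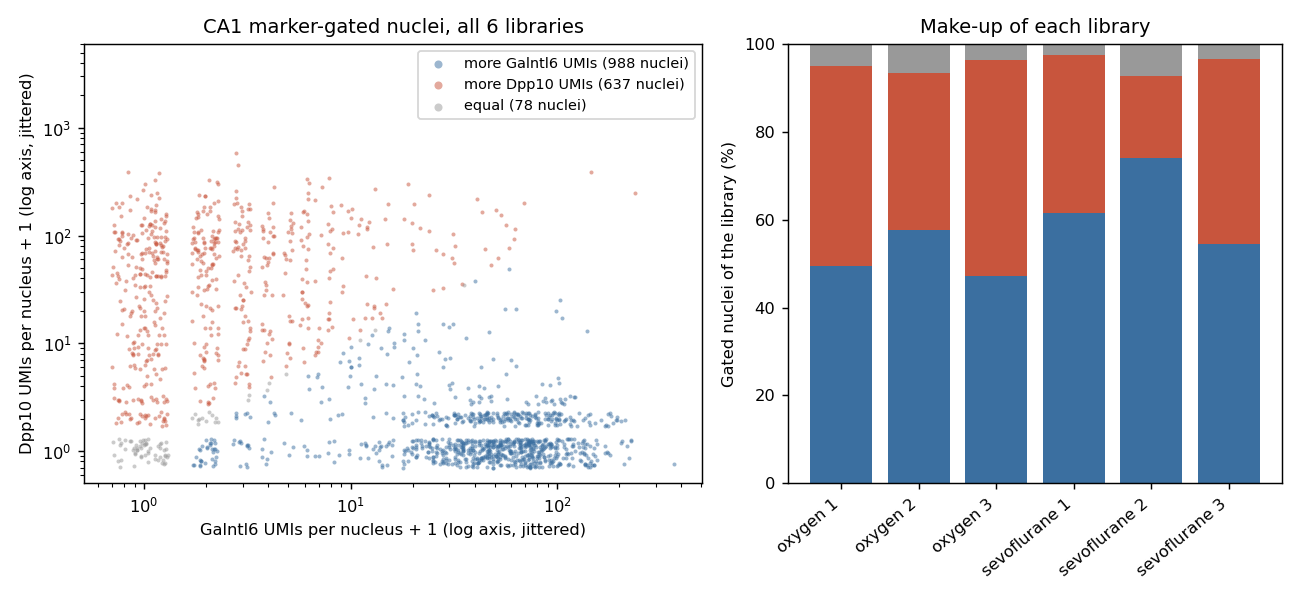
Galntl6 against Dpp10 UMIs in the selected nuclei and the percentage of each library's selected nuclei on either side. Left, each point is a nucleus on log axes with 1 added; right, bars are blue for the Galntl6 side, red for the Dpp10 side and grey for ties. The 988 and 637 nuclei of the sides lie on either side of the diagonal, and the Galntl6 side makes up 47.2% to 74.1% of a library.

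The 6 CA1 markers of the rule were not detected evenly on the sides. Since the rule required at least 3 of them, their frequencies are shaped by it and are given as a description. Stac was detected in 66.7% of Galntl6-side and 10.99% of Dpp10-side nuclei, and Fibcd1 in 47.4% and 23.9%. Mpped1 (85.8% and 92.0%) and Man1a (93.3% and 92.2%) were common on both sides, while Wfs1 (37.4% and 39.7%) and Pou3f1 (42.3% and 54.5%) were seen in fewer nuclei of either. Of the 1110 nuclei with exactly 3 CA1 markers, 43.7% lay on the Galntl6 side, against 78.1% of the 402 nuclei with 4 markers, 98.8% of the 162 with 5 and all 29 with 6. Just outside the threshold, 3363 nuclei met every other condition with exactly 2 CA1 markers. Their median depth, taken over libraries, was 5809.75 UMIs, against 8506.25 UMIs for nuclei with exactly 3.

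Besides Galntl6 (5798 against 381 CPM), the genes with the largest ratio of the Galntl6 to the Dpp10 side were Iqgap2 (943 against 74.8 CPM), Ror1 (349.7 against 30.1 CPM), Arhgap12 (419 against 46.8 CPM), Cntnap5c (728 against 85.9 CPM), Zfhx4, Egfl6 and Lmo3. On the Dpp10 side, after Dpp10 itself (6443 against 97.9 CPM), they were Zfp804b (407 against 12.6 CPM), Sgcz (2482 against 105 CPM), Pdzrn3 (465 against 19.3 CPM), Ptprt (831 against 46.5 CPM) and Cux2 (243 against 10.7 CPM), a transcription factor of upper-layer cortical neurons. Npsr1, the neuropeptide S receptor, was at 72.5 CPM on the Dpp10 side and at 0.661 CPM on the Galntl6 side. Both sides carried the excitatory genes Slc17a7, the vesicular glutamate transporter (214 and 173 CPM), and Camk2a (1376 and 756 CPM). These values describe the nuclei that were split and carry no test.

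Over all selected nuclei, the 12 genes outside the rule with the largest ratio to all other nuclei included Vwc2l, Egfl6, Hs6st3, Tshz2, Pdzrn3, Col11a1, Chrm3, Pantr1, Hunk, Kcnh7 and Nell1. Hs6st3, a heparan sulfate 6-O-sulfotransferase, had a mean of 3701 CPM against 1379 CPM in the remaining nuclei, and Chrm3, a muscarinic acetylcholine receptor, 1544 against 641 CPM. The spread over libraries was wide for Tshz2 (264 to 1267 CPM) and Vwc2l (59.3 to 344 CPM) and narrow for Hs6st3 (3274 to 3994 CPM). Against 7534 dentate granule nuclei, which held 4 or more of Prox1, Glis3, C1ql2, Dsp, Stxbp6 and Rfx3, the leading genes were Galntl6 (3537 against 139.9 CPM), Chrm3, Tshz2, Nell1 (579 against 34.1 CPM), Vwc2l and Samd5.

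Another set of 3071 nuclei met the other conditions but showed at least 2 of Pde11a, Cpne7, Npr3 and Adamtsl1, and so outnumbered the selected nuclei. Its nuclei were deeper in every library, with medians of 10265 to 13473 UMIs against 7679.5 to 10184 UMIs in the selected nuclei. The part of depth in this cut was not tested. Between 77.9% and 90.6% of this set, depending on the library, had more Galntl6 than Dpp10 UMIs. The genes in which the selected nuclei exceeded it most were Pdzrn3 (209 against 42.3 CPM), Vwc2l, Rmst, Sgcz (1089.6 against 261 CPM), Ptchd4 and Tshz3, of which Pdzrn3 and Sgcz also led the Dpp10 side. In the other direction Syt17 (108 against 29.5 CPM), Dpyd (245 against 96.5 CPM), Itgbl1, Bmpr1b, Ndrg1 and Slc9a2 led.

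Transcripts of other cell types were present in the selected nuclei. For scale, the 6 CA1 markers of the rule summed to 794 to 906 CPM in the oxygen and 766 to 918 CPM in the sevoflurane libraries. Between 50.7% and 59.3% of a library's selected nuclei held at least 2 detected markers of 1 non-neuronal type. The 5 choroid plexus markers summed to 63.1 to 299 CPM in the oxygen libraries and 20.3 to 27.5 CPM in the sevoflurane libraries. The 5 oligodendrocyte markers summed to 299 to 473 and 309.6 to 396 CPM, the 5 microglial markers to 45.8 to 61.3 and 43.0 to 46.9 CPM, and the 5 inhibitory markers to 131 to 217 and 85.7 to 226 CPM. The CA2 list (74.1 to 111 and 96.3 to 127 CPM) and the CA3 list (209 to 219.96 and 209 to 255 CPM) overlapped between the groups. The 5 ependymal markers summed to 4.71, 8.15 and 9.77 CPM after oxygen and 57.5, 43.2 and 8.78 CPM after sevoflurane, high in sevoflurane replicates 1 and 2. The 4 excitatory neuron markers summed to 1579 to 1647 and 1443 to 1554 CPM. Of the marker lists checked, other than that of the rule, the choroid plexus and excitatory sums separated the groups without overlap, both lower after sevoflurane. Their part in the results below was not tested.

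The share of all nuclei that met the rule overlapped between the groups. It was 2.97%, 3.03% and 3.10% in the oxygen libraries and 3.69%, 3.03% and 3.25% in the sevoflurane libraries, where the 95% Wilson interval of the lowest library ran from 2.62% to 3.37% and that of the highest from 3.34% to 4.08%. The means were 3.03% ± 0.0666 (SD, n = 3) and 3.33% ± 0.337 (SD, n = 3), a difference of 0.291 percentage points (two-sided exact permutation test, p = 0.2; the smallest p that the 20 splits allow is 0.1). With every nucleus thinned to 2000 UMIs the difference was 0.0800 points (exact permutation p = 0.4). Within the selection, the Galntl6 side made up 49.6%, 57.7% and 47.2% in oxygen and 61.6%, 74.1% and 54.5% in sevoflurane libraries, and the groups overlapped (exact permutation p = 0.2). Galntl6-side nuclei as a share of all nuclei were 1.47%, 1.75% and 1.46% in oxygen and 2.28%, 2.25% and 1.77% in sevoflurane libraries. These did not overlap and gave the smallest possible p of 0.1 in the exact permutation test.

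Few genes differed between sevoflurane and oxygen beyond the spread between libraries when counts were summed per library over the selected nuclei. Of 12435 genes tested, 9 (0.0724%) passed an adjusted p of 0.05 in edgeR's quasi-likelihood test. The gene that rose (0.00804%) was Arhgef33, and the 8 that fell (0.0643%) were Sav1, Pde7b, Xylt1, Plcl1, Unc5c, Mical2, Setbp1 and 4930587E11Rik. The libraries of the groups did not overlap for any of the 9. An unadjusted p under 0.05 was reached by 1320 genes, 586 higher and 734 lower. The median fold change of all genes was 0.01 on the log2 scale, and 52.0% were positive. Leaving out any one oxygen library, or sevoflurane replicate 1, left 0 calls, and leaving out sevoflurane replicate 2 or 3 gave 28 and 64. With a correction for gene span, 3 of the 9 passed (Sav1, Arhgef33 and 4930587E11Rik), and with nuclei thinned to 2000 UMIs 0 genes passed in edgeR, with 723 at an unadjusted p under 0.05.

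Arhgef33 encodes a predicted guanine nucleotide exchange factor for small GTPases. It lies at chr17:80307407-80400081 on the plus strand (mm10, GENCODE M21). Its level was 4.38, 4.52 and 4.89 CPM in the oxygen libraries and 13.997, 15.8 and 18.1 CPM in the sevoflurane libraries, so that the lowest sevoflurane library stood well above the highest oxygen library. The log2 fold change was 1.79 ± 0.25 (SE; edgeR adjusted p = 0.0283). The gene was detected in 4.01% to 4.47% of the selected nuclei after oxygen and in 9.19% to 16.1% after sevoflurane. With each nucleus thinned to 2000 UMIs these shares were 0.417% to 1.86% and 1.09% to 3.42%, and they overlapped. Groups were also apart on each side, with 3.16 to 3.799 against 12.5 to 18.2 CPM on the Galntl6 side (edgeR adjusted p = 0.0474) and 5.03 to 6.21 against 17.02 to 22.2 CPM on the Dpp10 side (edgeR adjusted p = 0.0714). In dentate granule nuclei of the same libraries it rose, with 6.34 to 7.44 CPM after oxygen and 12.5 to 18.1 CPM after sevoflurane (edgeR adjusted p = 0.00612).

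Sav1, the scaffold protein that joins the Hippo kinases, had the largest fall of the 8. It lies at chr12:69965012-69987002 on the minus strand. The oxygen libraries held 28.9, 35.4 and 29.8 CPM and the sevoflurane libraries 10.6, 7.503 and 13.1 CPM, far apart and without overlap. The log2 fold change was -1.57 ± 0.21 (SE; edgeR adjusted p = 0.0233). A Sav1 UMI was seen in 22.03% to 27.7% of selected nuclei after oxygen and in 6.12% to 13.7% after sevoflurane, and after thinning in 5.42% to 6.69% and 2.55% to 3.42%, without overlap. The fold change was -1.56 on the Galntl6 side (edgeR adjusted p = 0.058) and -1.55 on the Dpp10 side (edgeR adjusted p = 0.0322).

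The Hippo pathway relays cell contact and tension to the coactivators Yap1 and Wwtr1. Of 17 listed Hippo genes 14 were tested, 1 fell (Sav1) and 0 rose, with a median log2 fold change of -0.15. On the Galntl6 side alone the median was -0.06 over 11 tested genes, and on the Dpp10 side 0.02 over 13. Wwc1 (KIBRA), an upstream Hippo regulator also linked to memory, had 117, 126 and 107 CPM after oxygen and 71.1, 82.5 and 76.7 CPM after sevoflurane. The groups did not overlap, but over all selected nuclei the difference missed the threshold (log2 fold change -0.61, edgeR adjusted p = 0.096). On the Galntl6 side Wwc1 fell, with 149 to 165 CPM after oxygen and 77.5 to 102 CPM after sevoflurane (log2 fold change -0.84 ± 0.13 SE, edgeR adjusted p = 0.0278). The kinase genes Stk3, Stk4 and Lats1 had log2 fold changes of -0.16, -0.15 and -0.00, and Tead1, a partner transcription factor, -0.33 (edgeR adjusted p = 0.302).

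Xylt1, the enzyme that starts chondroitin and heparan sulfate chains on proteoglycans, lies at chr7:117380979-117673580. It fell from 261, 231 and 234 CPM to 145, 143 and 144 CPM (log2 fold change -0.75 ± 0.10 SE, edgeR adjusted p = 0.0233). Plcl1, a catalytically inactive phospholipase C-like protein that takes part in GABA-A receptor trafficking, lies at chr1:55405921-55754285. It fell from 244, 228 and 265 CPM to 161, 153 and 153 CPM (log2 fold change -0.65 ± 0.10 SE, edgeR adjusted p = 0.0355). For both genes the sevoflurane libraries lay close together and below every oxygen library.

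Unc5c, a netrin receptor for repulsive axon guidance, lies at chr3:141465216-141834924. It fell from 569, 532 and 507 CPM to 352, 311 and 368 CPM (log2 fold change -0.64 ± 0.10 SE, edgeR adjusted p = 0.0485). Mical2, an oxidase that depolymerises nuclear actin, lies at chr7:112225856-112413106. It fell from 528, 581 and 577 CPM to 372, 371 and 341 CPM (log2 fold change -0.64 ± 0.10 SE, edgeR adjusted p = 0.0355). Of the 9 genes, Mical2 was the one that passed on each side taken alone, with log2 fold changes of -0.66 on the Galntl6 side (edgeR adjusted p = 0.0278) and -0.81 on the Dpp10 side (edgeR adjusted p = 0.0117).

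Setbp1, a nuclear protein that binds the oncoprotein SET, lies at chr18:78750380-79109391. It fell from 876, 880.2 and 856 CPM to 589.6, 526 and 595 CPM (log2 fold change -0.61 ± 0.09 SE, edgeR adjusted p = 0.0406). The transcript 4930587E11Rik, outside the naming rule and singled out after its values were seen, fell from 59.6, 60.3 and 68.4 CPM to 31.4, 28.3 and 31.5 CPM (log2 fold change -1.04 ± 0.13 SE, edgeR adjusted p = 0.0233). Neither gene had an oxygen library within the range of the sevoflurane libraries.

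Pde7b, a cAMP phosphodiesterase at chr10:20398004-20725078, fell over all selected nuclei from 74.02, 76.9 and 68.9 CPM to 34.6, 42.9 and 39.6 CPM (log2 fold change -0.92 ± 0.12 SE, edgeR adjusted p = 0.0233). The level of this gene depended on the side: oxygen libraries held 11.97 to 18.4 CPM on the Galntl6 side and 114 to 168 CPM on the Dpp10 side. Within each side the groups overlapped, with log2 fold changes of -0.26 (edgeR adjusted p = 0.866) and -0.64 (edgeR adjusted p = 0.563). With equal numbers of UMIs taken from both sides, the fold change was -0.61 and the call was lost (edgeR adjusted p = 0.346). In that setting the other 8 genes passed the threshold in the same direction.

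**Figure D2:**
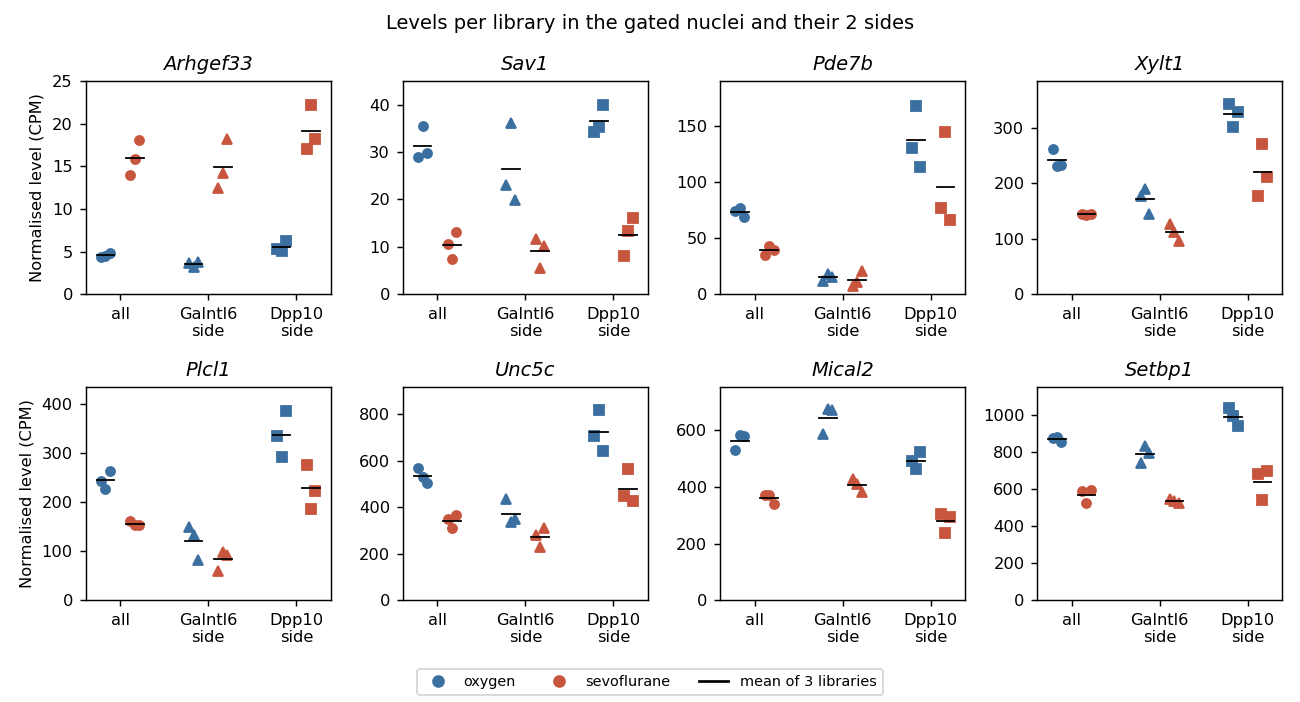
Normalised level (CPM) of the 8 named genes that passed the test, per library, over all selected nuclei (circles), the Galntl6 side (triangles) and the Dpp10 side (squares), with oxygen in blue, sevoflurane in red and lines for the mean of 3 libraries. The groups are separated over all selected nuclei in each panel, and for Pde7b they overlap within either side, where the oxygen levels are 11.97 to 18.4 and 114 to 168 CPM.

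Each side taken alone gave its own short list, and the genes named from it were chosen after their values were seen. On the Galntl6 side 16 of 10896 genes (0.147%) passed, 2 rising (0.0184%) and 14 falling (0.128%). Grin2a, the NMDA receptor subunit GluN2A, fell there from 4683, 5535 and 5515 CPM to 3763, 3694 and 3591 CPM (log2 fold change -0.51 ± 0.09 SE, edgeR adjusted p = 0.0474). Chrna7, the alpha-7 nicotinic acetylcholine receptor, fell from 105, 136 and 146 CPM to 79.9, 75.3 and 80.9 CPM (log2 fold change -0.72, edgeR adjusted p = 0.0477). Both genes had all sevoflurane libraries below all oxygen libraries. Slc8a1, a sodium-calcium exchanger, Dscaml1, a cell adhesion molecule, and Ubash3b, a phosphatase, also fell, with log2 fold changes of -0.52, -0.72 and -1.06 (edgeR adjusted p = 0.0474, 0.0278 and 0.0474). Fggy, a carbohydrate kinase gene, rose from 18.4, 8.23 and 5.698 CPM to 34.2, 28.4 and 36.98 CPM (edgeR adjusted p = 0.0477).

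On the Dpp10 side 15 of 10448 genes (0.144%) passed, 2 rising (0.0191%) and 13 falling (0.124%). Lrrtm3, a synaptic adhesion protein that binds neurexins, fell from 386, 418 and 369 CPM to 201, 199.9 and 226 CPM (log2 fold change -0.90 ± 0.13 SE, edgeR adjusted p = 0.00892). The actin nucleator gene Cobl, the LIM-domain cofactor gene Ldb2 and the transcription regulator gene Tox fell, with log2 fold changes of -0.94, -0.86 and -0.89 (edgeR adjusted p = 0.00892, 0.0135 and 0.0163). Stk33, a kinase gene, rose from 1.76, 1.01 and 4.43 CPM to 19.98, 11.1 and 19.7 CPM (log2 fold change 2.83 ± 0.49 SE, edgeR adjusted p = 0.0199). Whether the responses differ between the sides was not tested.

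Immediate-early genes of neuronal activity had mostly positive fold changes after sevoflurane, but 0 of them passed the test. Of 18 listed genes 15 were tested, 14 with a positive and 1 with a negative fold change. The list's median log2 fold change was 0.57, beside 0.01 for all genes, and 4 members had an unadjusted p under 0.05. The libraries overlapped for 14 of the 15, the exception being Fosl2, with 9.04 to 13.1 CPM after oxygen and 13.7 to 15.8 CPM after sevoflurane.

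Fos, a subunit of the AP-1 transcription factor, stood at 3.07, 1.88 and 6.66 CPM after oxygen and 13.1, 9.59 and 3.87 CPM after sevoflurane. Btg2, an antiproliferative gene induced by activity and by p53, stood at 6.57, 3.01 and 11.1 CPM and 21.995, 17.5 and 8.92 CPM. In both genes sevoflurane replicate 3 lay within the range of the oxygen libraries. The ependymal marker sum was likewise high in sevoflurane replicates 1 and 2 (57.5 and 43.2 CPM) and low in replicate 3 (8.78 CPM), and its part in these values was not tested. The log2 fold changes were 1.21 ± 0.54 (SE) and 1.249 ± 0.46 (SE), with edgeR adjusted p = 0.462 and 0.414. The orphan nuclear receptor Nr4a2 had 38.1, 34.7 and 47.98 CPM against 67.99, 71.7 and 39.6 CPM, again with replicate 3 low (log2 fold change 0.57, edgeR adjusted p = 0.438). Nr4a1, its close relative, had 49.9 to 68.9 against 40.7 to 72.8 CPM (log2 fold change 0.09). Arc, a regulator of AMPA receptor endocytosis, had 12.7, 12.8 and 35.5 CPM against 35.7, 41.3 and 19.3 CPM, and the neuronal transcription factor Npas4 5.26 to 21.8 against 8.33 to 20.3 CPM.

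**Figure D3:**
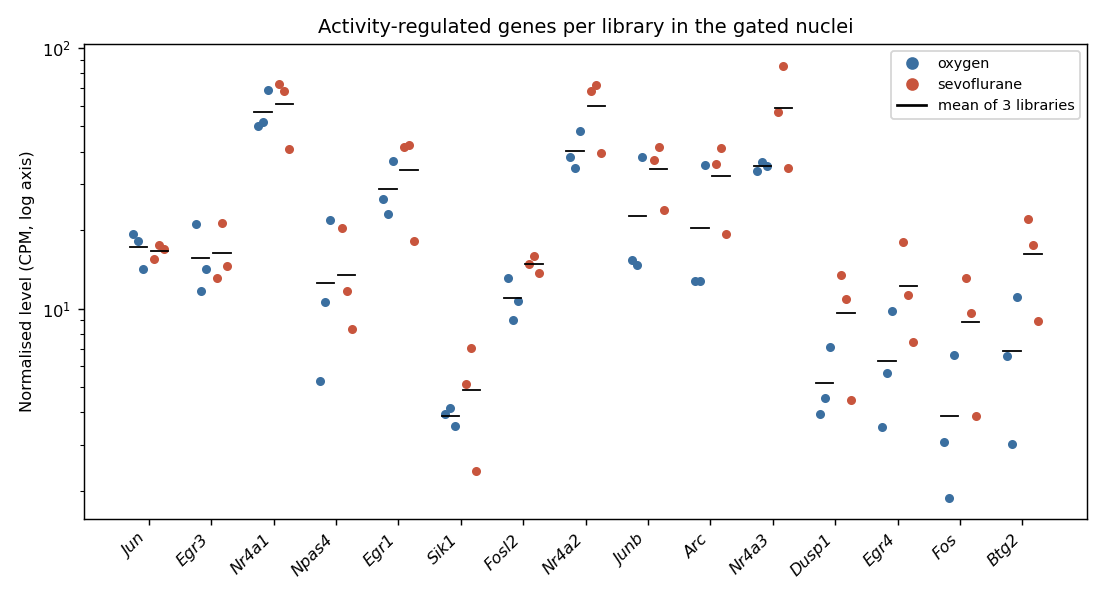
Normalised level (CPM, log axis) of the tested activity-regulated genes per library over all selected nuclei, with oxygen in blue, sevoflurane in red and lines for the mean of 3 libraries. The groups overlap for all but Fosl2; for Fos, sevoflurane libraries span 3.87 to 13.1 CPM and oxygen libraries 1.88 to 6.66 CPM.

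Activity genes are known targets of CREB, which binds the cAMP response element TGACGTCA or its half-site TGACG. On the other strand that half-site reads CGTCA. RefSeq promoter windows, 250 bases before to 50 after a gene's start (GRCm38.p6), were found for 13 of the 18 listed genes. A half-site on either strand occurred in 11 of the 13 (84.6%) and in 20.8% of 32851 promoters, and the full element, which holds a half-site on each strand, in 2 (15.4%) and in 1.79% of promoters. The list was assembled from genes known to respond to activity, so this describes the list. The windows of Btg2, Fos and Nr4a2 are shown because their values are given above, and capitals mark half-sites, which run together in the full element of Btg2. They lie at chr1:134079106-134079405 (minus strand), chr12:85473640-85473939 (plus) and chr2:57123954-57124253 (minus).
Btg2: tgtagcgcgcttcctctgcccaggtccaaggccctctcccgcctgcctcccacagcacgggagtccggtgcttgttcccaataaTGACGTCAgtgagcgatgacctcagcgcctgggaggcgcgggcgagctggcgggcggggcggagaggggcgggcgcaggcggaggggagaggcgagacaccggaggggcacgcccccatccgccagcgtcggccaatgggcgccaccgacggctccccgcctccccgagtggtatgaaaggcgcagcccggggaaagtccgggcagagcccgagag
Fos: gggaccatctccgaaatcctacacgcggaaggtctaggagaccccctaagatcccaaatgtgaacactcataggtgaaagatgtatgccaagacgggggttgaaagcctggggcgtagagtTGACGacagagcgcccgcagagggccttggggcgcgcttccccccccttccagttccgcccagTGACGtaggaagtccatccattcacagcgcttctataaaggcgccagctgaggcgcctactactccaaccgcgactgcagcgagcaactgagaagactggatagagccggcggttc
Nr4a2: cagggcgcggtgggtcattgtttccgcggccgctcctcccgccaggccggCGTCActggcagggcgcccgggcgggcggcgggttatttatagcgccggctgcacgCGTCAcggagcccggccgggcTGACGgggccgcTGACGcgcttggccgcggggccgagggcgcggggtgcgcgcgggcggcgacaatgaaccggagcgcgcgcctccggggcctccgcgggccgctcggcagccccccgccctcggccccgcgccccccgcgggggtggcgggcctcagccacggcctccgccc

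The share of nuclei with activity transcripts overlapped between the groups as well. With each nucleus thinned to 2000 UMIs, at least 2 UMIs of the 18 genes were found in 10.0%, 10.4% and 16.25% of selected nuclei after oxygen and in 16.5%, 24.1% and 11.6% after sevoflurane, a difference of 5.17 percentage points (exact permutation p = 0.2). Thinning left out 4 to 7 shallower nuclei per library. Without thinning the shares were 51.5% to 60.6% and 58.9% to 65.4%. Nuclei with oligodendrocyte markers, with median depths of 2547 to 2878 UMIs against 7770.0 to 10307 UMIs in the selected nuclei that were thinned, gave 12.6% to 15.5% and 11.6% to 20.8%. Dentate granule nuclei thinned in the same way gave 3.88% to 6.31% and 6.11% to 9.50%. The shares in the selected nuclei thus lay above those of the dentate nuclei and in the range of the oligodendrocyte marker nuclei, except that sevoflurane replicate 2 (24.1%) was above and oxygen replicates 1 and 2 were below it. Free RNA was not measured apart from the nuclei, and its part in these shares was not tested. The Galntl6 side alone gave 9.48% to 16.96% and 13.75% to 23.4% (exact permutation p = 0.3).

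Activity-dependent effectors had 14 of 18 positive fold changes with a median of 0.21, and 0 were called. On the Galntl6 side alone 9 of 16 were positive (median 0.06), and on the Dpp10 side 10 of 14 (median 0.24). Tiparp, an ADP-ribosyltransferase, had the smallest p of the list, with 17.5, 16.95 and 17.3 CPM after oxygen and 37.1, 37.1 and 22.6 CPM after sevoflurane (log2 fold change 0.89, edgeR adjusted p = 0.18). Bdnf, brain-derived neurotrophic factor, had 25.4, 38.1 and 44.9 CPM against 63.99, 44.6 and 44.9 CPM. Tiparp separated the groups and Bdnf did not. The synaptic scaffold gene Homer1 had 225 to 268 against 197 to 341 CPM, and Lingo1, a myelination inhibitor, 172 to 189 against 148 to 159 CPM.

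Cholesterol synthesis genes and respiratory chain genes shared a positive sign without a call. All 21 listed cholesterol genes were tested, 18 were positive, the median was 0.28 and 5 had libraries that did not overlap, all higher. Over all genes, 7.56% were higher and 8.95% lower without overlap. The sterol demethylase Cyp51 had 18.4, 21.5 and 20.9 CPM after oxygen and 27.1, 30.4 and 32.1 CPM after sevoflurane (log2 fold change 0.56 ± 0.16 SE, edgeR adjusted p = 0.264). Insig1, a sterol sensor, had 4.82, 4.52 and 5.77 CPM against 8.86, 8.75 and 10.1 CPM (edgeR adjusted p = 0.301). For both genes every sevoflurane library was higher than every oxygen library. The synthase gene Hmgcs1 overlapped (20.4 to 37.2 against 19.996 to 41.3 CPM).

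Of 24 respiratory chain genes 21 were positive with a median of 0.20, and 5 did not overlap, all higher. The ATP synthase subunit gene Atp5a1 had 105, 93.1 and 104 CPM against 121, 135 and 112 CPM (log2 fold change 0.29, edgeR adjusted p = 0.382), and the cytochrome oxidase gene Cox4i1 87.8 to 115 against 91.9 to 147 CPM. Both lists hold short genes, with median genomic spans of 16323 and 11757 bases. Fold changes moved with the span over all genes: the median was 0.12 for the 2460 genes under 10 kb and -0.18 for the 552 genes over 300 kb. After a correction for span the medians of the cholesterol and respiratory lists were 0.21 and 0.08.

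Glutamate receptor genes mostly had negative fold changes. Of 16 genes of AMPA receptors and their auxiliary proteins 12 were negative (median -0.20), of 11 NMDA receptor and postsynaptic density genes 9 (median -0.19), and of 15 kainate, delta and metabotropic genes 14 (median -0.27), and 0 were called in these lists. Gria1, the GluA1 subunit, had 2250.0, 3194 and 2344 CPM after oxygen and 2137, 3038 and 2227 CPM after sevoflurane, with overlap, and Gria2 1724 to 2019 against 1769 to 2167 CPM. Grin1, the obligatory NMDA subunit, went against the sign of its list, with 519, 556 and 526 CPM against 666, 596 and 703 CPM (log2 fold change 0.30 ± 0.10 SE, edgeR adjusted p = 0.314). Grm7, a presynaptic inhibitory glutamate receptor, had 2301, 2297 and 2308 CPM against 1941, 1456 and 1973 CPM without overlap (log2 fold change -0.36 ± 0.12 SE, edgeR adjusted p = 0.307), and Grm5 2298 to 2768 against 2193 to 2329 CPM. With the span correction the 3 medians were -0.12, -0.08 and -0.15. On the Galntl6 side alone they were -0.22, -0.28 and -0.20, and on the Dpp10 side -0.13, -0.17 and -0.13. Of the kainate, delta and metabotropic genes, 3 of 14 were positive on the Galntl6 side and 4 of 15 on the Dpp10 side.

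Direct targets of volatile anaesthetics had median fold changes closer to that of all genes. The 13 synaptic GABA-A genes had a median of -0.08, the 12 genes of tonic GABA-A, glycine and GABA-B receptors -0.04, and the 11 tested two-pore-domain potassium and HCN channel genes -0.05, with 0 called in each list. Gabrb1, a GABA-A subunit gene, had 919 to 1189.5 against 926 to 1247 CPM with overlap. Gabrb2 had 326, 415 and 409 CPM against 296, 281 and 299 CPM without overlap (log2 fold change -0.39, edgeR adjusted p = 0.251). Pex5l (TRIP8b), an auxiliary subunit of HCN channels, had 1656 to 1859.8 against 1793 to 2011 CPM with overlap.

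Voltage-gated potassium channel genes had 20 of 23 negative fold changes (median -0.18, 0 called). Kcnq5, a subunit of the M-current, had 1764, 1947 and 1721 CPM after oxygen and 1256, 1238 and 1395 CPM after sevoflurane without overlap (log2 fold change -0.48 ± 0.10 SE, edgeR adjusted p = 0.145). The abundant Kcnip4 (10875 to 11946 against 10096 to 11405 CPM) and Kcnd2 (4082 to 4927 against 4123 to 4283 CPM), parts of the A-type current, overlapped. The 20 voltage-gated calcium and sodium channel genes had a median of -0.08 and 0 calls, with the auxiliary subunit gene Cacna2d3 at 1433 to 1666 against 1057 to 1353 CPM. With the correction for gene span the potassium list had a median of -0.08, with 7 of 23 genes positive. The calcium and sodium list then had a median of 0.03, with 11 of 20 positive.

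Synaptic structure genes were mostly negative. In vesicle release 19 of 26 were negative (median -0.12, 0 called), and the calcium sensor Syt1 had 3489, 3657 and 3602 CPM against 3017, 2649 and 2962 CPM without overlap (log2 fold change -0.32 ± 0.09 SE, edgeR adjusted p = 0.275). In synaptic adhesion 21 of 25 were negative (median -0.21, 0 called), with Lsamp at 11062 to 12642 against 9470.3 to 11228 CPM and Tenm2, a teneurin, at 6275 to 6527 against 4438 to 6051 CPM. In axon guidance 21 of 26 were negative (median -0.18) and 1 gene, Unc5c, fell. The 25 genes of calcium signalling and plasticity kinases had a median of -0.19, with 16 negative and 0 called. After the span correction the medians of these 4 lists were -0.05, -0.05, -0.02 and 0.00. The numbers of positive genes were then 11, 11, 11 and 13. On the Galntl6 side alone, without that correction, the medians were -0.01, -0.10, -0.22 and -0.21, with 13, 4, 4 and 7 genes positive. On the Dpp10 side they were -0.12, -0.23, -0.17 and -0.21, with 5, 5, 5 and 8 genes positive.

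The remaining lists held no called gene. Glucocorticoid targets (13 tested, median 0.18), p53 targets (9 tested, median 0.26, Btg2 among them), heat shock and endoplasmic reticulum chaperones (15 tested, median 0.11), clock genes (18 tested, median -0.04), neuromodulator receptors (18 tested, median 0.00) and growth factor signalling (19 tested, median -0.15) showed both signs. With the span correction these medians were, in the same order, 0.15, 0.21, 0.03, -0.09, -0.01 and -0.01. The clock gene Npas2 had 157 to 217 against 89.6 to 159.7 CPM (log2 fold change -0.57, edgeR adjusted p = 0.417), and the chaperone gene Hsp90ab1 181 to 223 against 203 to 291 CPM. Of the 15 tested chaperone list genes 9 were positive and 6 negative, the latter being Hspa5, Hsp90b1, Pdia4, Pdia6, Calr and Xbp1. Hsp90b1 had the smallest p of that list (log2 fold change -0.57, edgeR adjusted p = 0.167). Without overlap 1 of its genes was higher and 4 were lower, beside 7.56% and 8.95% of all genes. Genes that mark position within CA1 had a median of 0.07 over 9 tested. Lefty1, a Nodal antagonist and one of them, had 3.504, 2.26 and 2.22 CPM against 5.43, 9.17 and 7.73 CPM without overlap (log2 fold change 1.45, edgeR adjusted p = 0.213).

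S-methyl-5-thioadenosine is a by-product of polyamine synthesis that the phosphorylase Mtap recycles towards methionine. Mtap was too sparse to be tested, with 6, 14 and 8 UMIs in the selected nuclei after oxygen and 11, 8 and 18 UMIs after sevoflurane. Of 17 tested polyamine and methionine cycle genes 8 were positive and 9 negative (median -0.05), and 0 were called. Mat2a, which makes S-adenosylmethionine, had 104 to 123 against 91.6 to 101 CPM, and Ahcyl1 107 to 119 against 103 to 115 CPM. Odc1, the rate-limiting enzyme of polyamine synthesis, had 5.69, 3.39 and 5.77 CPM against 12.6, 12.9 and 5.06 CPM with overlap (edgeR adjusted p = 0.405).

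**Figure D4:**
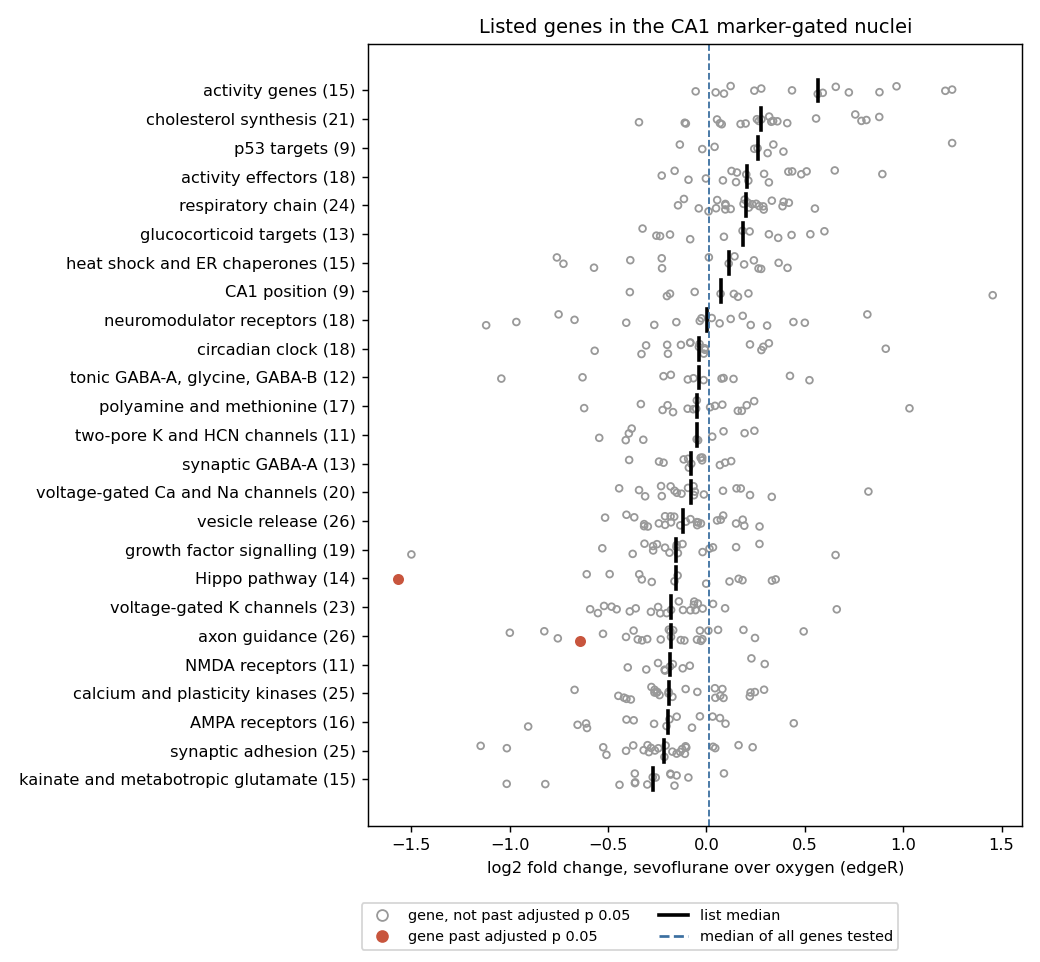
Log2 fold change (sevoflurane over oxygen, edgeR) over all selected nuclei for the tested genes of the 25 lists. Bars mark list medians, a dashed line the median of all genes and filled points the genes past the test. Activity genes have the highest median, 0.57, and kainate, delta and metabotropic glutamate genes the lowest, -0.27; Sav1 and Unc5c are the listed genes that passed the test.

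The response of the selected nuclei was set against that of dentate granule nuclei of the same libraries by testing the difference of log2 CPM within each library with limma. Of 12391 genes 11 (0.0888%) differed, 8 with a positive difference, selected minus dentate (0.0646%), and 3 with a negative one (0.0242%). The positive 8 were Kctd16, Epha5, Gpc4, Sema5b, Ankfn1, Cdh18, Cyp7b1 and Bmp6, and the negative 3 were Kcnn3, Pdzd2 and the predicted gene Gm2087. For Kctd16, Epha5, Cdh18 and Cyp7b1 both fold changes were negative, the dentate one more so.

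Kctd16, an auxiliary subunit of GABA-B receptors, had 1052, 1168 and 1186 CPM after oxygen and 988, 962 and 1054 CPM after sevoflurane in the selected nuclei. In dentate granule nuclei it fell from 1334, 1439 and 1292 CPM to 775, 656 and 634 CPM (edgeR adjusted p = 0.000378). The groups were far apart in the dentate set and overlapped in the selected nuclei, and the difference of the responses was 0.80 ± 0.10 (SE, log2; limma adjusted p = 0.0172). Epha5, an ephrin receptor tyrosine kinase, had 1091 to 1322 against 1037 to 1137 CPM in the selected and 637 to 827 against 385 to 403 CPM in the dentate nuclei, a difference of 0.68 ± 0.10 (SE; limma adjusted p = 0.0222). Cdh18, a cadherin outside the naming rule, had 129.7 to 169.7 against 133 to 165 CPM in the selected and 97.96 to 117 against 63.8 to 66.9 CPM in the dentate nuclei (difference 0.66, limma adjusted p = 0.0339). For Epha5 and Cdh18, too, the groups overlapped in the selected nuclei only.

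Gpc4, a glypican that promotes excitatory synapse formation, had 23.7 to 23.99 CPM after oxygen and 29.1 to 30.4 CPM after sevoflurane in the selected nuclei, and 160.0 to 180.4 against 103 to 124 CPM in the dentate nuclei (difference 0.87 ± 0.12 SE, limma adjusted p = 0.0185). On the Galntl6 side its log2 fold change was -0.01 and on the Dpp10 side 0.75, neither called. Ankfn1 (2.63, 6.78 and 3.998 against 14.3, 11.7 and 6.54 CPM) and Sema5b, a semaphorin (5.26, 5.28 and 3.998 against 9.998, 13.3 and 8.33 CPM), were sparse in the selected nuclei, with differences of 2.13 and 1.45 (limma adjusted p = 0.0339 and 0.0339).

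Kcnn3, a small-conductance calcium-activated potassium channel, had 50.4, 42.6 and 47.5 CPM after oxygen and 36.6, 31.3 and 27.7 CPM after sevoflurane in the selected nuclei, and 58.6 to 63.9 against 71.3 to 79.2 CPM in the dentate nuclei. The groups did not overlap in either set and lay in opposite order, with a difference of -0.84 ± 0.15 (SE; limma adjusted p = 0.0429). Pdzd2, a PDZ-domain protein, had 97.6 to 121 against 66.7 to 99.04 CPM in the selected and 761 to 869 against 683 to 1127 CPM in the dentate nuclei (difference -0.61, limma adjusted p = 0.0339). With the Galntl6 side in place of all selected nuclei, 2 of the 11 genes passed and no other did. Without oxygen replicate 1, 2 or 3, or sevoflurane replicate 2, the count was 0, 1, 5 and 4, and without sevoflurane replicate 3 it was 31.

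**Figure D5:**
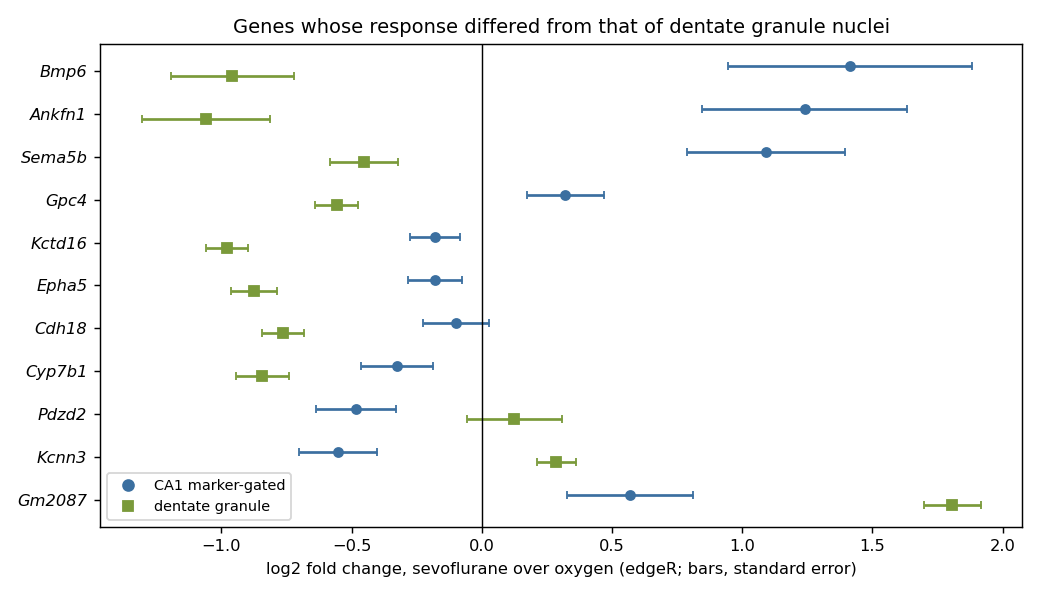
Log2 fold change (sevoflurane over oxygen, edgeR) for the 11 genes whose response differed between the selected nuclei (circles) and dentate granule nuclei (squares), with bars for the standard error. For Kctd16, Epha5, Gpc4 and Cdh18 the dentate values are -0.98, -0.87, -0.56 and -0.76 and those of the selected nuclei -0.18, -0.18, 0.32 and -0.10.

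Against the nuclei with Pde11a, Cpne7 and related markers, the response of 0 of 12389 genes (0.0%) differed at a limma adjusted p under 0.05. An unadjusted p under 0.05 was reached by 598 genes in that test. If no response differed, a share of 0.05 of the genes would reach it, and the 598 were just under that share. Dentate granule comparisons were simulated with the same spread between libraries for every gene (dispersion 0.018). In them the same kind of test recovered 11% of 1.5-fold and 60% of 2-fold changes. The 0 therefore does not show that the responses are alike. Sav1 in the Pde11a and Cpne7 set fell from 28.96, 35.5 and 26.5 CPM to 11.01, 13.5 and 11.5 CPM (log2 fold change -1.35, edgeR adjusted p = 0.0056). Mical2 fell there too, with 562 to 607 against 368 to 412 CPM (log2 fold change -0.55, edgeR adjusted p = 0.00639). Arhgef33 had 5.97 to 9.59 against 10.03 to 13.9 CPM there (log2 fold change 0.66, edgeR adjusted p = 0.147), and the difference of 1.01 ± 0.28 (SE, log2) from the selected nuclei did not pass (limma adjusted p = 0.715). Fos (1.56 to 3.02 against 5.05 to 8.36 CPM) and Btg2 (2.72 to 6.36 against 10.2 to 16.1 CPM) rose in that set (edgeR adjusted p = 0.0403 and 0.0355).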

How the data were processed

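Single-nucleus RNA sequencing was done on the hippocampi of 6 libraries with the 10x Genomics 3' v3.1 kit, per the labels' protocols. The deposited values are whole-number UMI counts per gene and barcode, made with fastp and Cell Ranger 7.1.0 on mm10, per the submitters' processing notes. Whether intronic reads were counted is not given in the sources used here. Counts of the selected nuclei were summed per library and tested with edgeR 4.0.16 (quasi-likelihood, robust, TMM, filterByExpr) in R 4.3.3, with Benjamini-Hochberg adjustment over all genes tested. Differences between nucleus sets were tested with limma 3.58.1 on log2 CPM with a prior count of 2, and shares with exact permutation tests over libraries. DESeq2 1.42.0 was an alternative. Intervals are 95% Wilson intervals and cover counting error only.

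The nucleus rule, gene lists and tests were chosen with earlier results of these data known. Named genes are the called ones with at least 10 CPM in a group and no overlap, up to 15 rises and 15 falls. Sex-linked and numbered predicted genes were left out. For each list the named genes are its called ones or else the 2 most abundant. Others were added after their values were seen, among them Wwc1, Tiparp, Bdnf, Insig1, Grin1, Gabrb2, Kcnq5, Lefty1 and Odc1. Whether the libraries overlapped for these was known when they were chosen. Of 32285 listed genes, 32235 matched the annotation used for positions. Counts were simulated with the same dispersion for every gene, 0.018, a measure of spread between libraries beyond counting error. On them the edgeR test recovered 28% of 1.5-fold and 84% of 2-fold changes, with 7 false among 119 calls, over 12444 genes. These rates, and those of the simulated dentate comparison, need not hold for the data, where spread can differ between genes, or for sparse genes. No doublet caller was run. An alternative left out nuclei with at least 2 detected markers of 1 non-neuronal type, which were 50.7% to 59.3% of the selected nuclei of a library, and the deepest 2%. Some genes of the lists are counted in them but not reported here by name.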

Additional observations from a re-analysis of the deposited data

Results flagged for a closer look

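In 11 genes the response to sevoflurane differed between the selected nuclei and dentate granule nuclei of the same libraries, by limma's test of the difference itself. The differences (selected minus dentate, log2) were 0.80 for Kctd16, 0.68 for Epha5, 0.87 for Gpc4, 1.45 for Sema5b, 2.13 for Ankfn1, 0.66 for Cdh18, 0.53 for Cyp7b1 and 2.19 for Bmp6. They were -0.84 for Kcnn3, -0.61 for Pdzd2 and -1.24 for Gm2087. Cyp7b1, an oxysterol hydroxylase gene, fell in the dentate nuclei by 0.84 on the log2 scale (edgeR adjusted p = 0.00392), beside -0.33 in the selected nuclei (edgeR adjusted p = 0.438). Gm2087 rose in the dentate nuclei from 11.7, 13.3 and 11.6 CPM to 42.2, 40.5 and 46.6 CPM, beside 10.1, 12.4 and 7.11 CPM and then 15.7, 12.9 and 15.5 CPM in the selected nuclei. No explanation was tested for these differences.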

How the results depend on the processing

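The count of 9 genes called between sevoflurane and oxygen varied with the settings. It was 73 with DESeq2 (5 of the 9 among them, and no adjusted p for the other 4), 5 with upper-quartile scaling, 330 with no filter on low counts (303 of them among the genes tested in the report), 26 with at least 4 markers required, 1 with at least 2, 15 without mixed and deepest nuclei, 0 with nuclei thinned to 2000 UMIs (723 at an unadjusted p under 0.05), and 3 with a correction for gene length. On nuclei chosen after seeing the data it was 16 on the Galntl6 side, 15 on the Dpp10 side and 42 with equal UMIs from both sides. Leaving out 1 library gave 0 to 64 calls. The count of 11 genes that differed from dentate nuclei was 7 with a prior count of 0.5, 3 after thinning, 2 with the Galntl6 side only and 0 to 31 with 1 library left out. The count of 0 against the Pde11a and Cpne7 type was 1 with the Galntl6 side only and 0 to 2 with 1 library left out. The difference in the share of selected nuclei turned to -0.141 points with at least 2 markers required. The fold changes of the 9 called genes and the 11 differences from dentate nuclei kept their sign in the settings run; those of the other named genes were not followed across settings, and Gpc4 was 0.32 over all selected nuclei and -0.01 on the Galntl6 side. The replicate numbers were not used to pair libraries, since same-numbered libraries had correlations of -0.138, 0.0461 and -0.0348. With the number as a replicate block the 3 counts were 30, 36 and 5, and with the length correction and the block the first was 27.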
